A study of Mus musculus with 145 samples.

Results

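*Ctgf*, *Cyr61*, *Ankrd1*, *Tagln*, *Acta2*, *Thbs1*, *Postn* and *Fn1* are genes that fibroblasts switch on in response to the co-activator YAP or to TGF-beta. *Thy1* is a surface glycoprotein of fibroblasts. The levels of all 9 were followed through the reprogramming of mouse spermatogonial stem cells (SSCs) into germline-derived pluripotent stem cells (gPSCs). These 9 genes were taken by name from the 24615 genes of the single-cell table, and all 9 were detected. The cells were SSCs derived from neonatal male pups of a cross of C57BL/6 females carrying an EGFP or *Oct4*-EGFP transgene with DBA males. They were grown on feeder layers of growth-arrested mouse embryonic fibroblasts, given no treatment by their labels, and collected by mouth pipette on days 0, 8, 10, 12, 14, 16, 18, 20, 23 and 27 in 46 libraries of batches B1 and B2. A second set of samples from single-cell Trio-seq2, which reads RNA and DNA methylation from the same cell, compared SSCs induced in the presence of 5 chemicals (5C, the PRMT3 inhibitor SGC707 with vitamin C, EGCG, daphnetin and TUDCA) with SSCs given the vehicle DMSO. The labels give no day for these, and the names of the deposited cells place 5C cells on days 12, 14 and 16 and DMSO cells on days 20 and 24 with 8 barcodes of day 0, so treatment and day cannot be told apart.

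YAP and its paralog TAZ enter the nucleus when the Hippo kinases are inactive, as they are in spread cells on a stiff substrate, and bind DNA through TEAD factors. TGF-beta acts through receptor kinases and SMAD factors, and it shares many targets with YAP/TEAD and with SRF, the actin-responsive factor that drives contractile genes. In fibroblasts the combined programme yields matricellular proteins, a fibronectin-rich matrix and, in myofibroblasts, smooth muscle actin.

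The genes lie on 6 chromosomes (GRCm38, GENCODE annotation). The matricellular genes *Ctgf* (also named *Ccn2*) and *Cyr61* (*Ccn1*) lie at chr10:24595442-24598683 on the plus strand and chr3:145646976-145649981 on the minus strand. *Thbs1* lies at chr2:118111876-118127133 on the plus strand, *Postn* at chr3:54361109-54391037 on the plus strand and *Fn1* at chr1:71585520-71653200 on the minus strand. *Ankrd1* occupies chr19:36111961-36120099 and *Acta2* chr19:34241090-34255590, both on the minus strand. *Tagln* and *Thy1* lie at chr9:45929619-45936058 (minus) and chr9:44043384-44048579 (plus).

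The RefSeq promoter table (GRCm38.p6), which gives 250 bases before and 50 bases after each transcription start, held windows for *Cyr61*, *Ankrd1*, *Acta2* and *Postn*. The other 5 genes had no entry. A search for the 6-letter core of the TEAD site, GGAATG, on both strands found it in 3 of these 4 genes, and 14.7% of all 32851 windows held it. The 3 windows are shown because this word is what *Cyr61*, *Ankrd1* and *Acta2* share, and capitals mark it as GGAATG or, on the opposite strand, CATTCC. The *Cyr61* window is chr3:145649936-145650235, the *Ankrd1* window chr19:36119795-36120094 and the *Acta2* window chr19:34255324-34255623, each read 5′ to 3′ on the minus strand.

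Cyr61: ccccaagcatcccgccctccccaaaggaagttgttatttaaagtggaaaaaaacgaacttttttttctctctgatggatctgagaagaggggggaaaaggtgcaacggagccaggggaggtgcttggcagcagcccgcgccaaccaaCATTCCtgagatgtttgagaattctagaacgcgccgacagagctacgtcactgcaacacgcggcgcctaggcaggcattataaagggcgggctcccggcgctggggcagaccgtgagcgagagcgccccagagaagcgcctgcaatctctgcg

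Ankrd1: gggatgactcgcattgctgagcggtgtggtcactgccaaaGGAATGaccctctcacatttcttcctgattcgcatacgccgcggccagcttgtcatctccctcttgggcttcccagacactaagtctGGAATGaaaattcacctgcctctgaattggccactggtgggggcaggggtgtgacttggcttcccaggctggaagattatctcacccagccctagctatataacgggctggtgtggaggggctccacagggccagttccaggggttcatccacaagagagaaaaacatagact

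Acta2: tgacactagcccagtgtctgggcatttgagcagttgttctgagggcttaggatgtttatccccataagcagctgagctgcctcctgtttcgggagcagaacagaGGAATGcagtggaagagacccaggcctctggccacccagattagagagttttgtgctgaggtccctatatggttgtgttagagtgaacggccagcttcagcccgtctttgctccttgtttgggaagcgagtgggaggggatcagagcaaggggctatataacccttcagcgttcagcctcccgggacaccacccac

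Counted from the transcription start, the word stood at bases -103 to -98 in *Cyr61*, at -210 to -205 and again at -123 to -118 in *Ankrd1*, and at -146 to -141 in *Acta2*. The windows of *Postn* did not hold it. The shorter SMAD word CAGAC, searched on both strands as CAGAC or GTCTG, occurred in all 4 genes and in 49.6% of all windows. A match describes these letters only, since no binding was measured here.

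The single-cell table held 4464 cells, and the 46 reprogramming libraries held 15975410 to 34609591 UMIs each (median 25269300). The annotation deposited with the counts placed 182 cells in Fibroblast 1 and 39 in Fibroblast 2, against 2265 cells in the clusters SSC1 to SSC4, 505 in the meiotic and 478 in the neural clusters. UMI counts were summed per library and cell class, leaving out sums of under 5 cells, and are given as CPM, counts scaled to a common library total, after TMM scaling. Fibroblast 1 then had 4 libraries (day 8 with 66 cells, day 10 with 30, day 14 replicate 2 with 57 and day 14 replicate 4 with 24), Fibroblast 2 had 3 (day 8 with 20 cells, day 10 with 8 and day 27 replicate 5 with 6) and SSC1-4 had 36. The same 96 well barcodes served in every library, and all 4464 cell names were unique. The study named the fibroblast clusters by *Ctgf* (as *Ccn2*), *Col12a1* and *Col5a2*, and the clusters were made from the expression of these same cells, so the differences between clusters are given with their standard errors as descriptions, without a test.

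The label was set beside 20 fibroblast markers that hold none of the 9 genes but include *Col12a1* and *Col5a2*, which served to name the clusters. In Fibroblast 2 all 20 were at least 2-fold higher than in SSC1-4 (a log2 fold change of at least 1), and their summed level was 4130 to 9809 CPM against 94.7 to 268 CPM in SSC1-4. In Fibroblast 1, 14 of 20 were, and the sum was 402 to 722 CPM. The 14 spermatogonial markers summed to 3165 to 3456 CPM in Fibroblast 1, inside the SSC1-4 range of 3028 to 4815 CPM. In Fibroblast 2 they summed to 412 CPM on day 10, 863 CPM on day 8 and 2605 CPM on day 27. Fibroblast 1 therefore held fibroblast and spermatogonial transcripts together. The day-27 sum of Fibroblast 2 also held many germ cell transcripts, but unevenly by cell. Over its 6 cells the spermatogonial sum ran from 582 to 3813 CPM (median 2897), where the day-8 median per cell was 757 CPM. Of 5 smooth muscle markers 1 was at least 2-fold higher in Fibroblast 2 than in SSC1-4 (*Myh11*, 1.91 ± 1.25) and *Cnn1* and *Actg2* were at 0 UMIs, with a summed level of 18.1 to 26.4 CPM against 2.31 to 42.1 CPM. Of 7 Sertoli markers *Amh* (4.31 ± 1.65), *Inha* (2.60 ± 1.48) and *Sox9* (2.08 ± 0.80) were higher, 4 were lower with *Rhox8* at 0 UMIs, and the sum was 21.5 to 67.5 CPM against 3.56 to 82.3 CPM. Of 5 macrophage and blood markers *Ptprc* (1.59 ± 1.53) was higher and *Csf1r* and *Adgre1* were at 0 UMIs. None of 5 Leydig or 5 endothelial markers was higher, and *Hsd3b1*, *Insl3*, *Cyp17a1* and *Tie1* were at 0 UMIs.

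All 9 genes were highest in Fibroblast 2 among the 20 clusters of the table. Against SSC1-4 the differences ran from a log2 fold change of 3.39 ± 0.65 (SE, 3 and 36 libraries) for *Thy1* to 8.05 ± 0.81 for *Cyr61*, and no Fibroblast 2 library of any of the 9 genes overlapped the SSC1-4 libraries. For *Tagln*, *Acta2* and *Thy1* this rested on 1 cell of the day-27 library, without which 6 of 9 genes did not overlap. With each gene's own top cell left out of each of the 3 libraries, 4 of 9 did not overlap, namely *Cyr61*, *Thbs1*, *Postn* and *Fn1*. In Fibroblast 1, 7 of 9 genes were at least 2-fold above SSC1-4, or 3 of 9 when classes were compared within libraries (log2 medians 0.74 for the 9 and 0.01 for all genes). *Fn1* and *Thy1* were the exceptions, at 0.64 ± 0.25 and 0.62 ± 0.57 (SE, 4 and 36 libraries).

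**Figure D1:**
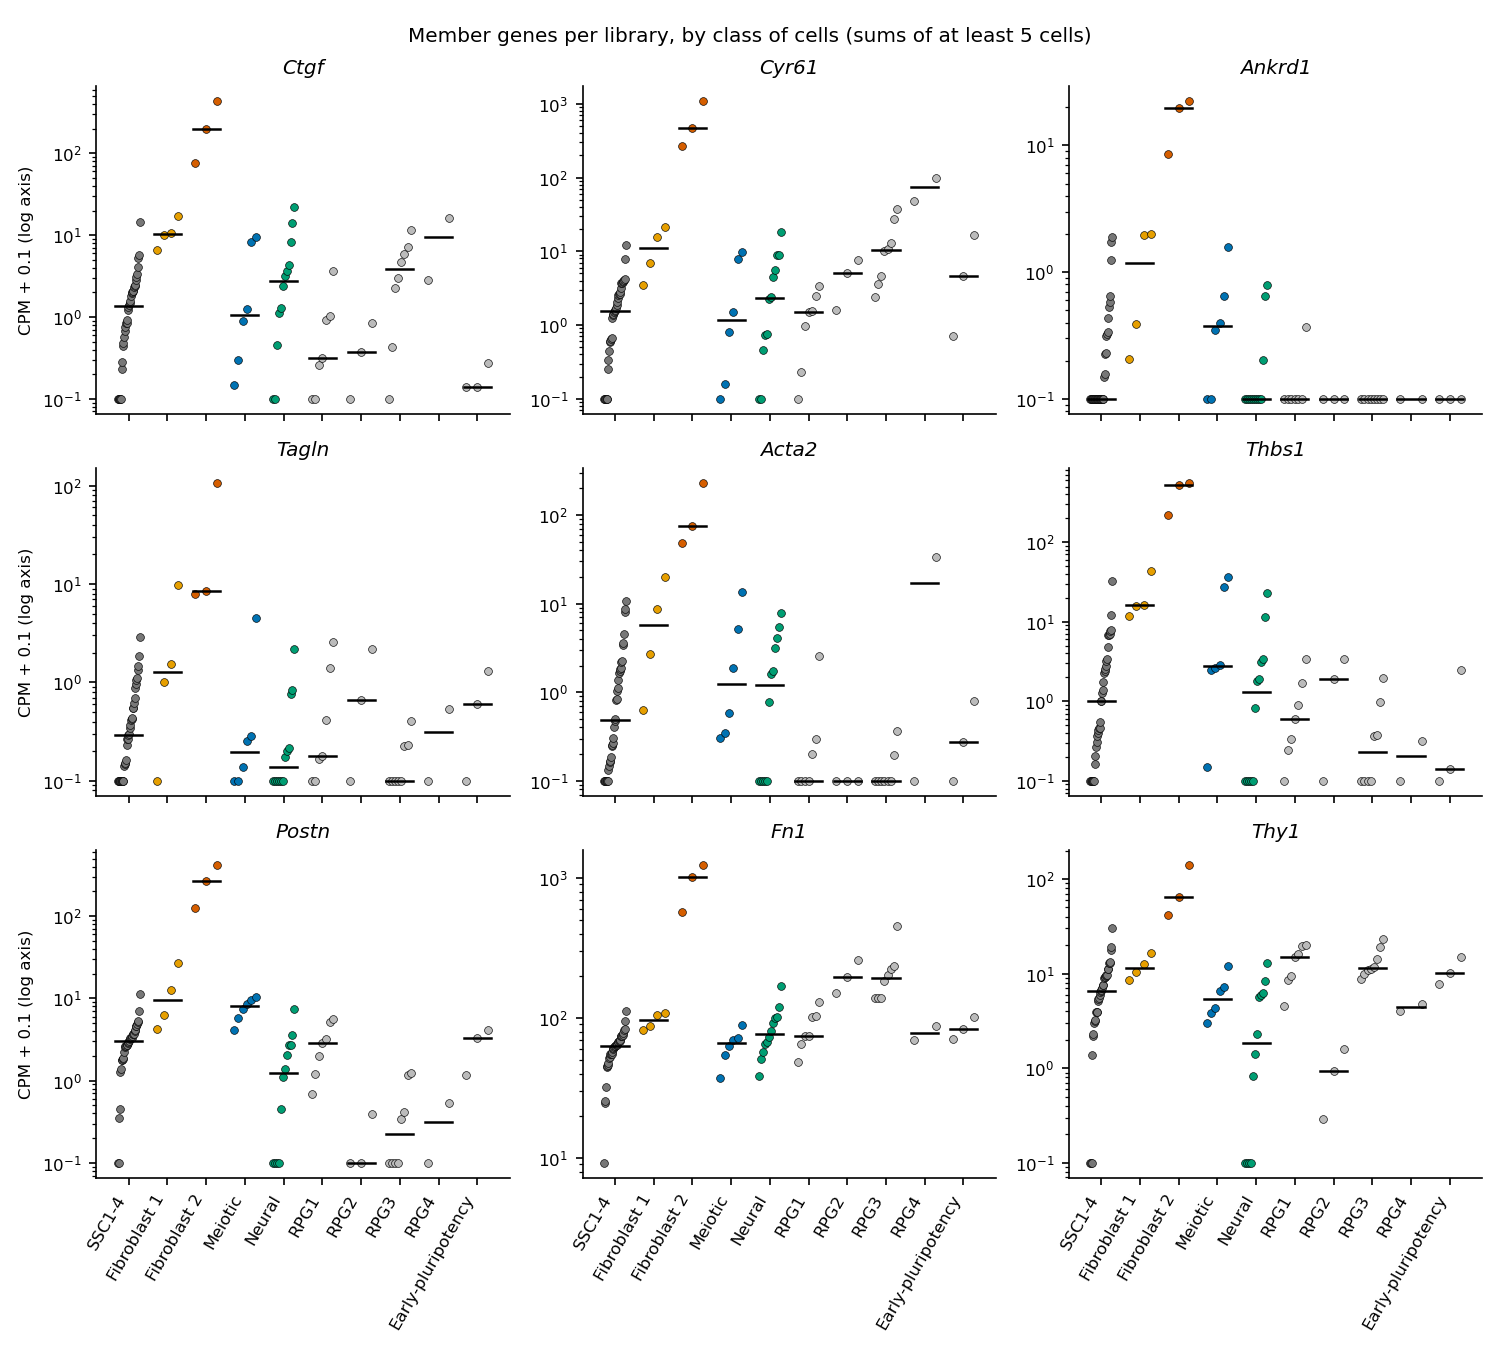
CPM (TMM) of each gene in each library, 1 panel a gene, with 0.1 CPM added on a log axis. Points are library sums of at least 5 cells in the 10 cell classes and lines are medians; the 3 Fibroblast 2 points lie above all 36 SSC1-4 points in every panel (in 6 of 9 without 1 day-27 cell, and in 4 of 9 without the top cell of each gene and library), while the 4 Fibroblast 1 points overlap them.

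Of the CCN matricellular genes, *Ctgf* encodes a secreted protein that binds integrins and growth factors and is the most widely used readout of YAP. It was at 197 CPM on day 8, 76.2 CPM on day 10 and 437 CPM on day 27 in Fibroblast 2. In Fibroblast 1 it was at 9.94 CPM on day 8, 10.4 CPM on day 10, and 6.42 and 17.3 CPM in replicates 2 and 4 of day 14. In SSC1-4 it ranged from 0.0 to 14.5 CPM (median 1.25). A single cell held 41.4%, 80.5% and 57.7% of the *Ctgf* UMIs of the Fibroblast 2 libraries of days 8, 10 and 27. The Fibroblast 2 libraries stood clear of both other classes (the day-10 library not without its top cell, at 13.9 CPM, unscaled), whereas 3 of the 4 Fibroblast 1 libraries lay within the SSC1-4 range. The log2 fold change was 6.99 ± 0.91 (SE) for Fibroblast 2 and 2.56 ± 0.81 for Fibroblast 1 against SSC1-4.

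*Cyr61*, the paralog of *Ctgf* and an immediate early gene of serum and YAP, had the largest difference of the 9. It was at 1093, 467 and 269 CPM in Fibroblast 2 on days 8, 10 and 27, and at 21.5, 6.87, 3.38 and 15.4 CPM in Fibroblast 1 on days 8, 10, 14 (replicate 2) and 14 (replicate 4). SSC1-4 libraries ranged from 0.0 to 12.03 CPM (median 1.46). Unlike *Ctgf*, *Cyr61* was lowest in the day-27 library of Fibroblast 2. *Ankrd1*, a nuclear ankyrin repeat protein induced by YAP and mechanical load, was scarce everywhere else. Its Fibroblast 2 libraries held 19.8, 8.40 and 22.3 CPM in the same order of days, those of Fibroblast 1 held 0.107, 1.87, 0.290 and 1.90 CPM, and the SSC1-4 median was 0.0 (highest 1.796 CPM). A single cell held 53 of the 56 *Ankrd1* UMIs of the day-8 Fibroblast 2 library, 8 of 13 on day 10 and 28 of 56 on day 27. Without its top cell the day-8 library was at 0.849 CPM, unscaled, below the highest SSC1-4 library. Its difference from SSC1-4 was 6.14 ± 1.44 (SE, log2) in Fibroblast 2 and 2.13 ± 1.28 in Fibroblast 1.

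Of the contractile genes, *Acta2*, smooth muscle alpha-actin and the defining product of myofibroblasts, was at 74.1, 47.8 and 230 CPM in Fibroblast 2 on days 8, 10 and 27. A single cell held 74.8% of these UMIs on day 8 and another 55.4% on day 10, and 1 cell held 98.1% of the day-27 UMIs. In Fibroblast 1 it was at 2.58 CPM on day 8, 19.9 CPM on day 10 and 0.531 and 8.63 CPM on day 14, against 0.0 to 10.6 CPM (median 0.388) in SSC1-4. Only the day-10 library of Fibroblast 1 exceeded every SSC1-4 library. The muscle actins are near-identical in coding sequence, and how shared reads were assigned is not given in the sources used here. *Tagln*, an actin-binding protein and SRF target also called transgelin, was at 7.76, 8.40 and 107 CPM in Fibroblast 2 (99.3% of the day-27 UMIs in that cell) and at 0.0, 1.46, 0.917 and 9.65 CPM in Fibroblast 1. The highest Fibroblast 1 library of *Tagln* (day 14 replicate 4) lay above the lower Fibroblast 2 libraries, and *Tagln* was the only gene of the 9 whose Fibroblast 1 and Fibroblast 2 libraries overlapped.

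Of the matrix genes, *Thbs1* encodes thrombospondin 1, which activates latent TGF-beta. It was at 556, 222 and 522 CPM in Fibroblast 2 and at 16.1, 15.8, 11.6 and 42.8 CPM in Fibroblast 1, with 0.0 to 32.1 CPM (median 0.911) in SSC1-4. *Postn*, periostin, a matricellular protein induced by TGF-beta, was at 419, 267 and 125 CPM in Fibroblast 2, at 6.18, 4.16, 12.5 and 26.5 CPM in Fibroblast 1 and at 0.0 to 11.2 CPM (median 2.92) in SSC1-4. In the highest of these Fibroblast 1 libraries, day 14 replicate 4, 1 cell held 78.5% of the *Postn* UMIs. Pooled over all cells, both were second highest in Fibroblast 1 among the 20 clusters. *Thbs1* was at 19.13 CPM there, level with Meiotic 2 at 19.04 CPM, and *Postn* at 11.6 CPM against 7.80 CPM in Meiotic 2. The other 7 genes had Fibroblast 1 at lower ranks, from the third for *Tagln* and *Acta2* to the 9th for *Fn1*. *Fn1*, fibronectin, was well expressed in every class, at 9.15 to 112 CPM (median 63.1) in SSC1-4. It was at 81.5, 87.8, 109 and 105 CPM in Fibroblast 1 and at 1241, 1019 and 574 CPM in Fibroblast 2. All Fibroblast 1 values of *Fn1* were within the SSC1-4 range. *Thy1*, a surface glycoprotein carried by fibroblasts and also by SSCs, was at 8.43, 12.6, 16.5 and 10.4 CPM in Fibroblast 1 and at 63.9, 141 and 41.1 CPM in Fibroblast 2, with 0.0 to 30.3 CPM (median 6.49) in SSC1-4.

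The counts stand against the background of 20034 genes compared. A log2 fold change of at least 1 in Fibroblast 1 over SSC1-4 was seen for 7 of 9 genes and for 7.16% of all genes, and the median was 2.299 for the 9 and -0.06 for all. None of the 9 had Fibroblast 1 libraries above all SSC1-4 libraries (0.0649% of all genes did). In Fibroblast 2 over SSC1-4 the count was 9 of 9 against 22.8% of all genes, with medians of 6.42 and -0.34, and 9 of 9 did not overlap (5.84% of all genes), or 6 of 9 without 1 day-27 cell (3.94% of all genes). Without the top cell of each gene in each library, on unscaled CPM, it was 4 of 9 (2.42% of all genes). Between Fibroblast 2 and Fibroblast 1 it was 9 of 9 against 24.1%, with medians of 4.01 and -0.05, and 8 did not overlap (11.7%), or 7 without that cell (8.66%). The last contrast was largest for *Cyr61* (5.69 ± 1.02) and smallest for *Thy1* (2.77 ± 0.83). With library as a block, which compares classes within a library, Fibroblast 1 exceeded SSC1-4 by 2-fold for 3 of 9 genes, *Ankrd1* (3.02), *Ctgf* (1.41) and *Thbs1* (1.04), and *Acta2* (0.97), *Cyr61* (0.74), *Tagln* (0.74), *Postn* (0.62), *Fn1* (0.50) and *Thy1* (-0.21) were below that limit. The *Ankrd1* value rested on 1 Fibroblast 1 cell a library, which held 14 of 18 UMIs on day 10, 6 of 6 in day 14 replicate 2 and 15 of 15 in day 14 replicate 4. The counts of 9 of 9 for Fibroblast 2 stayed under the block. Under the block the log2 medians in Fibroblast 1 over SSC1-4 were 0.74 for the 9 and 0.01 for all genes. In Fibroblast 2 over SSC1-4 they were 4.87 and -0.43. The share of all genes past 2-fold under the block is not given here.

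**Figure D2:**
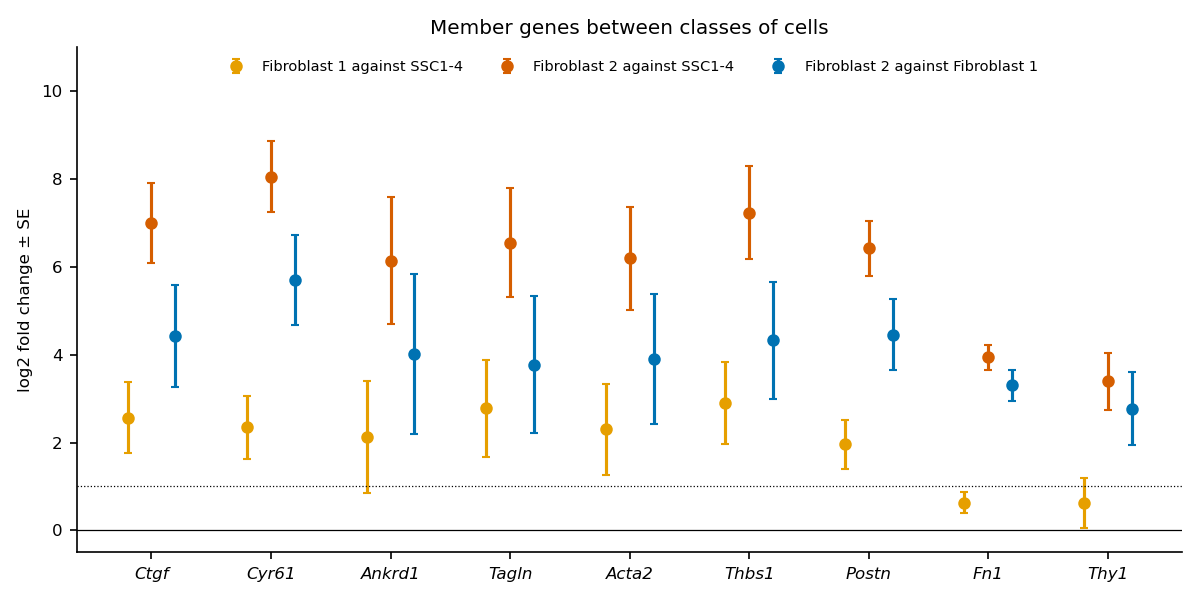
Log2 fold change (points) ± SE (bars) of the 9 genes in Fibroblast 1 against SSC1-4, Fibroblast 2 against SSC1-4 and Fibroblast 2 against Fibroblast 1, from library sums. The dotted line marks a log2 fold change of 1; every point of the Fibroblast 2 contrasts lies above it, and *Fn1* and *Thy1* lie below it in Fibroblast 1.

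The libraries that held more than 1 of these classes allowed comparison inside a library, free of differences between days. These ratios are of unscaled CPM with 95% intervals that cover counting error only. On day 8, *Cyr61* was 37.4-fold (33.7 to 41.6), *Acta2* 21.1-fold (15.4 to 29.5) and *Ctgf* 14.6-fold (12.3 to 17.3) higher in Fibroblast 2 than in Fibroblast 1. *Tagln* had 22 UMIs in Fibroblast 2 and 0 in Fibroblast 1 there, which makes it at least 35.4-fold higher against a floor of 3 counts. A single Fibroblast 2 cell held 157 of the 210 *Acta2* UMIs of day 8 (74.8%). Single cells also held 12 of the 22 *Tagln* UMIs and 41.4% of the *Ctgf* UMIs. Without its top cell *Acta2* was at 15.5 CPM in Fibroblast 2, against 2.68 CPM in Fibroblast 1. *Ctgf* was at 95.2 CPM without its own, against 10.3 CPM. On day 10 the ratio was 53.0 (41.2 to 69.3) for *Cyr61* but only 1.87 (1.41 to 2.46) for *Acta2*. *Acta2* thus had the lowest ratio of the 9 genes on day 10, though its interval overlapped that of *Ankrd1* (3.49, 1.57 to 7.54). Single cells held 55.4% of its Fibroblast 2 and 56.02% of its Fibroblast 1 UMIs there, and 80.5% of the Fibroblast 2 UMIs of *Ctgf*. The order without these cells was not tested.

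Inside single libraries Fibroblast 1 and SSC1-4 differed unevenly. On day 10, *Acta2* was 15.9-fold (9.70 to 27.9) and *Ctgf* 3.94-fold (2.67 to 5.94) higher in Fibroblast 1, while *Tagln* was at a ratio of 1.10 (0.508 to 2.35). In day 14 replicate 4 *Tagln* and *Acta2* changed places, with *Tagln* 21.8-fold (10.497 to 52.2) higher and *Acta2* at 0.833 (0.621 to 1.10). *Ctgf* was higher there as on day 10, 5.37-fold (3.92 to 7.43), and *Thbs1* was 9.30-fold (7.29 to 11.97) higher. *Ankrd1* had 15 UMIs against 1 in that library. *Postn* was 5.63-fold (4.35 to 7.33) higher there, and 1.32-fold (0.897 to 1.91) without its top cell. In day 14 replicate 2 the intervals of *Ctgf* (1.36, 0.848 to 2.303) and *Cyr61* (1.196, 0.643 to 2.42) included 1, and those of *Thbs1* (1.83, 1.23 to 2.83) and *Fn1* (1.74, 1.53 to 1.98) did not. Without the top Fibroblast 1 cell of each gene the *Acta2* ratio of day 10 was 7.48 (4.41 to 13.4), that cell holding 56.02% of the UMIs, and the *Tagln* ratio of day 14 replicate 4 was 12.1 (5.59 to 30.04), that cell holding 48.7%. In the day-27 library *Ctgf* was 19.1-fold (17.3 to 21.1) and *Fn1* 5.41-fold higher in the 6 Fibroblast 2 cells than in the neural cells, and without 1 of the 6 cells the ratios were 9.44 (8.35 to 10.66) and 4.60 (4.29 to 4.94).

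Levels per cell were uneven within Fibroblast 2. *Fn1* had a UMI in all 39 cells (median 938 CPM per cell), *Cyr61* in all but 1 (median 684 CPM) and *Thbs1* in all but 2 (median 376 CPM). *Ctgf* was at 0 in 7 cells (median 61.8 CPM), *Postn* in 10 and *Thy1* in 14. *Ankrd1*, *Tagln* and *Acta2* were at 0 in 31, 27 and 24 of the 39 cells, so their class levels came from few cells. At 1 UMI or more, without thinning, the matrix and CCN genes were found in most Fibroblast 2 cells. The contractile genes and *Ankrd1* were found in a minority. Depth ran from 35200 to 673620 UMIs a cell, and 3 cells held at least as many *Ctgf* UMIs as all others together.

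A single cell of the day-27 library, with 345650 UMIs in all, carried 632 *Ctgf*, 265 *Tagln*, 565 *Acta2*, 365 *Cyr61*, 452 *Thbs1* and 389 *Fn1* UMIs and no *Postn* UMI. It held 34.5% of all *Ctgf*, 65.6% of all *Acta2* and 87.7% of all *Tagln* UMIs of Fibroblast 2. Without it the *Tagln* difference fell to 3.54 against SSC1-4 (from 6.55) and to 0.75 against Fibroblast 1 (from 3.77), so that 8 of 9 genes instead of 9 remained at least 2-fold above Fibroblast 1. The other 8 kept that call. In the day-27 library the other 5 cells held 2 *Tagln* and 11 *Acta2* UMIs. Without the top cell the scaled day-27 levels of *Tagln* (0.900 CPM), *Acta2* (4.95 CPM) and *Thy1* (21.6 CPM) lay below the highest SSC1-4 libraries (2.82, 10.7 and 29.8 CPM), while the remaining 6 genes stayed above all of them. For *Tagln* and *Acta2*, 1 cell held at least as many UMIs as all other Fibroblast 2 cells together, whereas 14 cells were needed for *Fn1*, 10 for *Cyr61* and 8 for *Thbs1*.

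Across the 39 cells the genes varied largely on their own. Spearman's rho over the 36 gene pairs had a median of 0.11 and was above 0 in 26, with the lowest value between *Ctgf* and *Fn1* (-0.22) and the highest between *Tagln* and *Acta2* (0.54). These cells share 7 libraries and differ in depth, so the values are descriptions.

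**Figure D3:**
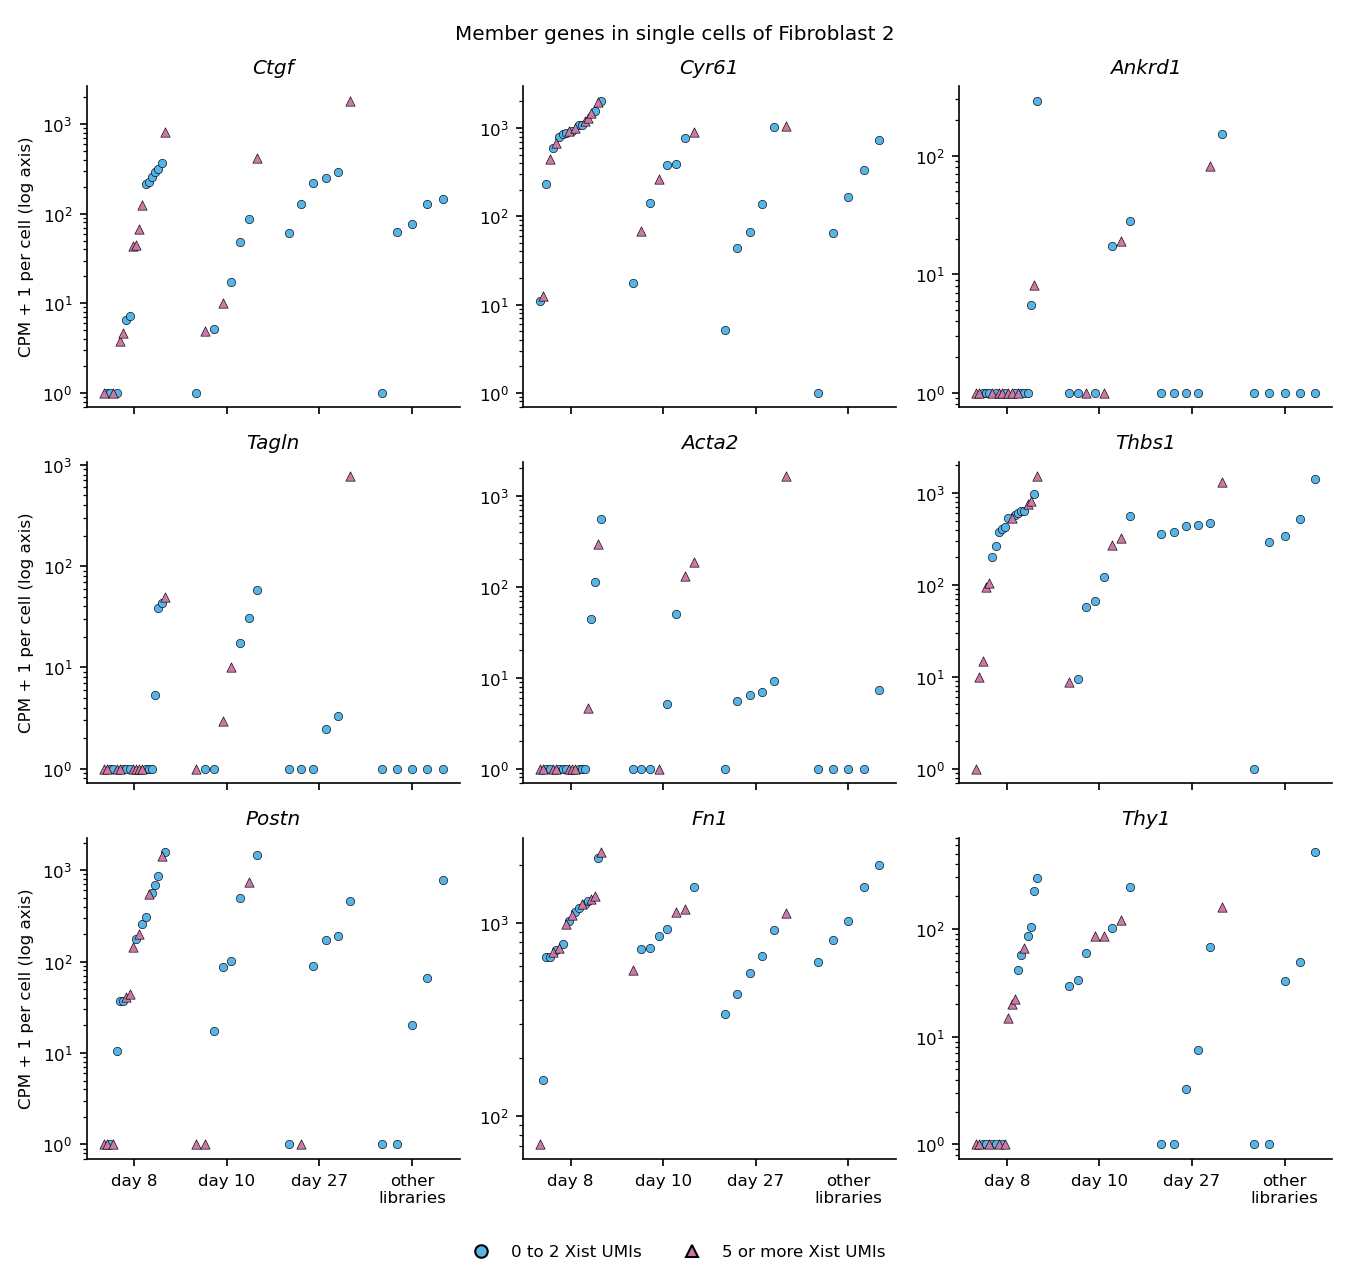
CPM per cell of the 9 genes in the 39 Fibroblast 2 cells, with 1 CPM added on a log axis, grouped by library (day 8, day 10, day 27 and the other 5 cells). Triangles mark the 13 cells with at least 5 *Xist* UMIs; most points of *Ankrd1*, *Tagln* and *Acta2* sit at 0 and a single day-27 cell tops *Ctgf*, *Tagln* and *Acta2*.

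*Xist*, the X-inactivation RNA of female cells, moved with the cluster, although the SSCs came from males. At least 5 *Xist* UMIs were found in 13 of 39 Fibroblast 2 cells (33.3%), in 5 of 182 Fibroblast 1 cells (2.75%) in 38 of 2265 SSC1-4 cells (1.68%) and in 38 of 261 RPG3 cells (14.6%). Of the 13 cells, 9 were from day 8, 3 from day 10 and 1 from day 27, and more than 10 Y-linked UMIs were counted in 3 of the 13 and in 23 of the other 26. The day-27 cell described above is 1 of the 13. In the other 12, summed, *Ctgf* was at 142 CPM, *Acta2* at 40.3 CPM, *Tagln* at 3.16 CPM and *Thbs1* at 255 CPM, against 143, 33.02, 4.94 and 410 CPM in the 26 cells below the limit. *Cyr61* was at 651 against 452 CPM. *Ankrd1* was at 2.37 against 15.5 CPM. The median per cell of *Ctgf* was 25.9 CPM in the 12 cells and 80.1 CPM in the 26, and *Tagln* and *Acta2* had a median of 0 in each set. Without the 13 cells all 9 genes were still at least 2-fold higher in Fibroblast 2 than in SSC1-4, with *Acta2* at 4.50 and *Tagln* at 4.05 on the log2 scale. The culture contained feeder fibroblasts, and the origin of the *Xist*-positive cells was not tested.

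Fibroblast 1 cells carried the genes at low levels. *Fn1* had no UMI in 1 of 182 cells, *Thbs1* in 44, *Cyr61* in 51, *Postn* in 60, *Ctgf* in 82 and *Thy1* in 83. *Acta2*, *Tagln* and *Ankrd1* were at 0 in 140, 160 and 176 cells, and the top cell alone held 33.6%, 33.9% and 36.6% of their UMIs. After each cell was thinned to 50000 UMIs, *Ctgf* was seen in 73.0% of 37 Fibroblast 2 cells (exact binomial 95% interval 55.9 to 86.2), 24.9% of 177 Fibroblast 1 cells (18.7 to 31.9) and 5.11% of 665 SSC1 cells. Before thinning the shares were 82.1%, 54.9% and 7.82%. *Cyr61* was seen in 91.9%, 37.3% and 2.86% of the thinned cells, *Postn* in 75.7%, 29.9% and 8.87% and *Acta2* in 21.6%, 10.2% and 4.36%. For these 4 genes the shares at equal depth stood in the order Fibroblast 2, Fibroblast 1, SSC1. The share of *Ctgf* in Neural 1 was 20.7% (16.0035 to 25.98). These intervals cover the sampling of cells only, not the spread between libraries, so the clusters were not tested against each other. Free RNA was not measured.

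Genes of the same pathways from fixed lists differed in Fibroblast 2 mostly in the same direction, beside 22.8% of all genes that were higher. Of 19 YAP and TEAD targets beyond the 9 genes, 15 were at least 2-fold higher in Fibroblast 2 than in SSC1-4, among them *F3*, tissue factor (5.76 ± 0.67), and *Igfbp3*, an IGF-binding protein (4.16 ± 0.48), while *Asap1* was at 0.87 ± 0.21. Of 14 TGF-beta targets, 12 were, with *Bgn*, the proteoglycan biglycan, at 8.45 ± 1.18, and the type I collagen chains *Col1a2* and *Col1a1* at 7.38 ± 1.26 and 4.72 ± 0.43. Of 19 TGF-beta ligands, receptors and Smads, 13 were, led in level by the receptors *Tgfbr2* (6.08 ± 0.81) and *Tgfbr3* (4.61 ± 0.69), with the SMAD repressor *Ski* at 0.00. Both TGF-beta lists hold *Skil*, *Smad7* and *Ltbp2*, and the targets hold the fibroblast markers *Col1a1*, *Col1a2* and *Col3a1*, so these counts are not independent. Pathway activity was not tested.

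The Hippo genes themselves differed less. Of 19, 11 were at least 2-fold higher in Fibroblast 2, *Wwc1* was lower and *Tead4* was at 0 UMIs, with the YAP paralog gene *Wwtr1* (TAZ) at 2.12 ± 0.50, the TEAD cofactor *Vgll4* at 1.13 ± 0.32 and the kinase gene *Stk4* at -0.46 ± 0.20. Of 16 contractile and SRF-dependent genes, 13 were higher, including the tropomyosins *Tpm1* (1.92 ± 0.25), *Tpm2* (4.42 ± 0.56) and *Tpm4* (4.39 ± 0.54), and the smooth muscle genes *Cnn1* and *Actg2* were at 0 UMIs, which gives no measured fold. Of 9 receptors for fibronectin, thrombospondin and periostin, 7 were higher, with the integrin chain *Itgb1* at 1.90 ± 0.23, the thrombospondin receptor *Cd47* at 2.42 ± 0.27 and the syndecan *Sdc4* at -0.39 ± 0.16. The list medians were 2.105 (YAP targets), 4.66 (TGF-beta targets), 3.12 (TGF-beta ligands, receptors and Smads), 1.13 (Hippo), 2.02 (contractile) and 2.42 (receptors), against -0.34 over all genes.

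In Fibroblast 1 fewer list genes passed that limit, which 7.16% of all genes did. Of the TGF-beta targets, which share *Col1a1*, *Col1a2* and *Col3a1* with the fibroblast markers, 8 of 14 were at least 2-fold above SSC1-4, with *Bgn* at 3.96 ± 1.04, *Col1a2* at 3.71 ± 1.11 and *Col1a1* at 1.33 ± 0.38, and of the YAP targets 5 of 19 were. None of the 19 Hippo genes passed that limit. Of the TGF-beta ligands, receptors and Smads only *Ltbp2* was higher and *Eng* lower, of the contractile genes only *Tgfb1i1* was higher and *Lmod1* lower, and of the receptors only *Cd36* was higher. The list medians were 1.10 for the TGF-beta targets and between 0.05 and 0.29 for the other 5 lists.

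**Figure D4:**
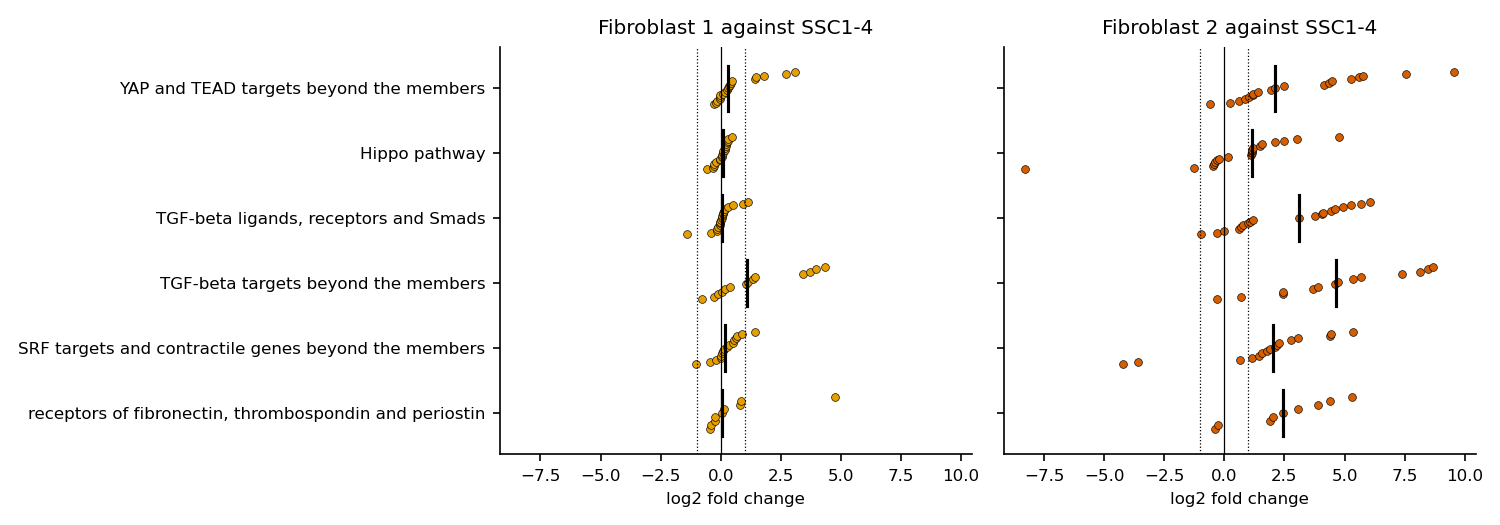
Log2 fold change against SSC1-4 of each gene of 6 pathway lists, in Fibroblast 1 and in Fibroblast 2, with lines at the list medians. In Fibroblast 2 the medians run from 1.13 (Hippo) to 4.66 (TGF-beta targets), and in Fibroblast 1 only the TGF-beta targets have a median above 1 (1.10).

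The transcripts of dividing cells were lower in Fibroblast 2. The 8 genes of S phase and mitosis summed to 228 to 899 CPM in Fibroblast 2, to 1838 to 2368 CPM in Fibroblast 1 and to 1060 to 2219 CPM in SSC1-4.

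Outside the fibroblast clusters the 9 genes differed from SSC1-4 one by one. In the meiotic clusters (6 libraries) 3 of 9 were at least 2-fold higher, against 8.53% of all genes. These were *Thbs1* (2.03 ± 0.78, libraries at 0.0475 to 36.1 CPM, median 2.66), *Postn* (1.26 ± 0.47) and *Acta2* (1.13 ± 0.87). The library of day 16 replicate 3, in which 93 cells were meiotic and 1 was a Fibroblast 2 cell, was the highest meiotic library for 7 of the 9 genes, all but *Postn* and *Thy1*. In the neural clusters (12 libraries) 2 of 9 were higher, against 10.6% of all genes, *Ctgf* (1.48 ± 0.54) and *Cyr61* (1.05 ± 0.50). *Ctgf* there ranged from 0.0 to 21.8 CPM (median 2.67), and its highest neural library was day 27 replicate 5, the library that held the *Ctgf*-rich Fibroblast 2 cell. The part of carried-over RNA in these values was not tested.

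On the way to pluripotency the 9 genes differed from each other and between clusters. Of the 4 reprogramming clusters named RPG1 to RPG4 by the study, RPG1 had 0 of 9 genes at least 2-fold higher (8.13% of all genes) and 4 lower (14.1%), namely *Acta2*, *Ankrd1*, *Ctgf* and *Thbs1*. RPG2 had 3 higher (17.2%), with *Fn1* at 1.72 ± 0.28, *Cyr61* at 1.04 and *Tagln* at 1.01, and 5 lower (41.6%). RPG3 had 3 higher (19.4%), with *Cyr61* at 2.57 ± 0.54, *Fn1* at 1.79 ± 0.18 and *Ctgf* at 1.25 ± 0.62, and 5 lower (33.6%). In RPG4, with 2 libraries, *Cyr61* was at 99.4 and 48.2 CPM in replicates 1 and 2 of day 20, a log2 fold change of 5.00 ± 0.98, and *Acta2* (3.404 ± 1.43) and *Ctgf* (2.31 ± 1.14) were also higher, which makes 3 of 9 (19.1%) beside 4 lower (40.4%). In the same order of libraries *Acta2* was at 0.0 and 33.6 CPM and *Ctgf* at 16.07 and 2.76 CPM, so the *Acta2* difference rested on 1 library. *Fn1* in RPG2 and RPG3 and *Cyr61* in RPG4 did not overlap the SSC1-4 libraries, as was so for 5.87%, 4.33% and 9.33% of all genes in these contrasts. In the early-pluripotency cluster *Cyr61* alone was higher (1.598 ± 0.82, 1 of 9 against 7.53% of all genes) and 4 were lower (24.0%). *Ankrd1*, at 0 in the sums of RPG2, RPG3, RPG4 and early pluripotency, is among the lower genes although its SSC1-4 median was 0.0 as well. *Acta2*, also at 0 in RPG2, is among the lower there. Pooled over all cells, including those of libraries with too few to sum, RPG4 was second to Fibroblast 2 for *Acta2* (30.9 CPM), *Tagln* (3.78 CPM) and *Ankrd1* (3.18 CPM). A single day-27 RPG4 cell held 43 of the 44 *Tagln* UMIs of that cluster and a single cell all 37 of *Ankrd1*, whereas in the 2 library sums *Tagln* was at 0.434 and 0.0 CPM and counted among the lower genes (-1.23 ± 2.15).

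In established lines, 1 library each and so without a test, *Fn1* was at 170 CPM in gPSCs of passage 1, 507 CPM in gPSCs of passage 15 and 253 CPM in embryonic stem cells (ESCs). The study kept these lines in ESC medium and the reprogramming cells in SSC medium, so lines and clusters differ in medium as well. *Cyr61* was at 38.2, 12.2 and 26.9 CPM and *Ctgf* at 25.3, 15.8 and 21.8 CPM in these 3 libraries. The remaining 6 genes had 0 to 7 UMIs in each line. Pooled over all cells of a cluster, second to Fibroblast 2 were ESCs for *Ctgf* (21.8 CPM), gPSCs of both passages for *Fn1* (317 CPM) and RPG4 for *Cyr61* (72.2 CPM).

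The genes most alike in pattern over the 18 clusters of reprogramming cells, by Pearson's r of log2(CPM + 1) among 13519 genes, were *Lpl* for *Ctgf* (0.93), *Itm2a* for *Cyr61* (0.95), *Prelp* for *Ankrd1* (0.95) and *Tagln* (0.97), *Ankrd1* for *Acta2* (0.91), *Lox* for *Thbs1* (0.97), *Il15* for *Postn* (0.94), *C1s1* for *Fn1* (0.94) and *Nfe2l2* for *Thy1* (0.91). All 9 genes are themselves highest in Fibroblast 2 and the clusters share libraries, so these values are descriptions.

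The course over days was tested inside SSC1-4, where the class label is the same on every day, over 27 libraries of batch B1 on days 12 to 27. With edgeR's quasi-likelihood F-test and Benjamini-Hochberg adjustment over 18443 genes, 0 of the 9 genes changed with day at an adjusted p below 0.05, against 16.8% of all genes. At an unadjusted p below 0.05 the count was 4 of 9, *Fn1* (p = 0.0134), *Thy1* (0.0189), *Cyr61* (0.0355) and *Ctgf* (0.0383), where 31.6% of all genes passed, and DESeq2's likelihood ratio test called 3, *Ctgf*, *Fn1* and *Thy1*, where it called 29.3% of all genes. The day-16 sums came from 8, 10 and 7 cells, and with at least 10 cells a sum *Ctgf* and *Thbs1* alone were below an unadjusted p of 0.05. *Fn1* came closest, at 42.6 ± 21.7 CPM (SD, n = 3) on day 16 and 97.1 ± 19.8 CPM (n = 3) on day 27 (edgeR adjusted p = 0.0678). *Cyr61* was at 0 in all 3 day-16 libraries and at 4.36 ± 4.10 CPM (n = 6) on day 23 (adjusted p = 0.128). The makeup of the class moved with day, since SSC1 gave 89.7% of the SSC1-4 cells on day 12 and 4.71% on day 23. In the same test 14 of 14 spermatogonial, 6 of 8 division and 2 of 19 fibroblast markers were called. The part of this makeup in the values of the 9 genes was not tested. The labels do not say whether libraries of a day were separate cultures, so these p-values measure the spread between libraries.

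In whole libraries, 2 of the 9 genes changed with day over 33 B1 libraries, *Thbs1* (edgeR adjusted p = 0.00784) and *Ctgf* (adjusted p = 0.0152), against 22.2% of 19875 genes. The 9 genes were thus called about as often as all genes. *Thbs1* was highest on day 16 (18.4 ± 19.3 CPM, SD, n = 4) and lowest on day 23 (1.09 ± 0.996 CPM, n = 7). *Ctgf* was at 0.870 ± 0.893 CPM (n = 2) on day 12 and 14.6 ± 21.7 CPM (n = 5) on day 27, and the day-27 spread came from replicate 5, at 53.1 CPM against 1.75 to 10.2 CPM in the other 4. Without that library the adjusted p of *Ctgf* was 0.195 and that of *Thbs1* 0.00356. The markers of cell types moved with day in the same test, 12 of 19 fibroblast and 10 of 14 spermatogonial markers being called, and the fibroblast sum had a median of 145 CPM on day 12 and 607 CPM on day 27. In day 27 replicate 5, 6 Fibroblast 2 cells of 92 carried 62.4% of the *Ctgf* and 64.1% of the *Thbs1* UMIs.

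The libraries of days 0, 8 and 10 were single and were not tested. *Cyr61* was at 2.64 CPM on day 0, 159 CPM on day 8 and 32.3 CPM on day 10, and *Thbs1* at 3.22, 85.0 and 27.03 CPM. *Ctgf* was at 1.16, 33.7 and 11.2 CPM, *Postn* at 4.63, 59.1 and 19.8 CPM and *Fn1* at 56.8, 228 and 128 CPM. *Ankrd1* was at 0.129, 2.63 and 1.34 CPM and *Acta2* at 0.0643, 11.7 and 11.1 CPM. These 7 genes were thus highest on day 8 among the 3 libraries, while *Tagln* (0.0643, 0.998 and 1.77 CPM) and *Thy1* (9.20, 15.3 and 17.2 CPM) were highest on day 10, and the summed level of the 20 fibroblast markers was 104 CPM on day 0, 2088 CPM on day 8 and 961 CPM on day 10. On day 8 the 20 Fibroblast 2 cells of 87 carried 88.6% of the *Cyr61*, 84.0% of the *Thbs1*, 75.1% of the *Ctgf* and 69.9% of the *Fn1* UMIs, and the 66 Fibroblast 1 cells the rest. On day 10, 8 Fibroblast 2 cells of 93 carried 88.1% of *Cyr61* but 26.1% of *Acta2*, of which 67.5% came from 30 Fibroblast 1 cells.

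**Figure D5:**
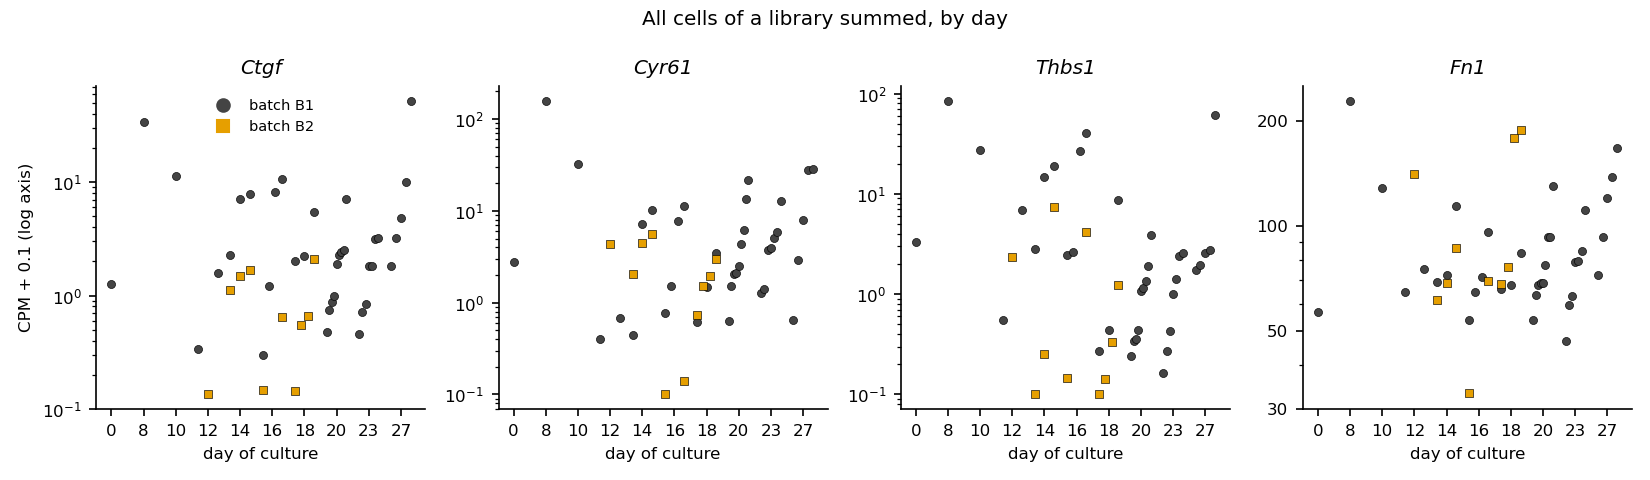
CPM (TMM) of *Ctgf*, *Cyr61*, *Thbs1* and *Fn1* in whole libraries by day of reprogramming, 1 point a library, with batches B1 and B2 in separate colours. The day-8 library is high in all 4 panels, and day 27 replicate 5 is the highest late library of *Ctgf* (52.4 CPM, scaled over all libraries) and *Thbs1* (60.9 CPM).

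No difference of the 9 genes between 5C and DMSO samples was detected. Over 8 samples of 5C (725 cells) and 5 of DMSO (368 cells), with 3889964 to 10724925 UMIs a sample, 5 of the 9 genes had counts high enough to test, and 0 of 5 were called by edgeR's quasi-likelihood test (adjusted p below 0.05), against 15% of 13019 genes. None of the 5 had an unadjusted p below 0.05, and DESeq2 called 0 as well. Without the filter on low counts 8 genes were tested and 0 called, with *Acta2* at an unadjusted p below 0.05. *Ctgf* was at 3.58 ± 3.60 CPM (SD, n = 8) with 5C and 3.56 ± 2.09 CPM (n = 5) with DMSO (log2 fold change 0.01 ± 0.88, SE, adjusted p = 0.998). *Fn1* was at 173 ± 94.3 against 127 ± 52.9 CPM (0.44 ± 0.37, adjusted p = 0.449), and *Thy1* at 4.08 ± 2.703 against 8.72 ± 4.61 CPM (-1.10 ± 0.66, adjusted p = 0.265). *Cyr61* (0.70 ± 0.91, adjusted p = 0.648) and *Thbs1* (-0.57 ± 0.95, adjusted p = 0.721) also had standard errors as large as or larger than their differences, so a 2-fold change of *Ctgf*, *Cyr61* or *Thbs1* was not detectable with these samples. For *Thy1* even an estimate past 2-fold was not called.

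The 4 genes below the filter had few UMIs. *Acta2* had 63 UMIs in 5 of 8 5C samples, 43 of them in replicate 5, and 0 in DMSO, *Tagln* 45 and 11, *Postn* 24 and 26 and *Ankrd1* 0 in both. Of the TGF-beta ligands, receptors and Smads 6 of the 16 tested were higher in 5C samples (7.69% of all genes were) and *Ltbp1* and *Smad3* were lower (7.29%), the former including *Tgfbr2* (3.05 ± 0.85), *Tgfb1* (2.93 ± 0.79) and *Tgfbr1* (1.27 ± 0.24). Of the YAP targets *Axl*, *Fjx1*, *Nt5e* and *Ptpn14* were higher and *Nuak2* lower of 15, and of the TGF-beta targets *Skil* and *Smad7* were higher and *Tgfbi* lower of 8. Also higher in 5C were the Y-linked *Uty* (1.51 ± 0.30) and *Ddx3y* (1.16 ± 0.34) of 4, the division genes *Mki67* (1.96 ± 0.33) and *Top2a* (0.88 ± 0.25) of 8, and the spermatogonial *Lhx1* (3.80 ± 0.40) and *Id4* (1.58 ± 0.27) of 14, while 0 of 8 fibroblast markers tested were. The part of these in the pathway differences was not tested, and all carry the difference in day as well.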

How the data were processed

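The authors sequenced single cells by modified STRT-seq, aligned reads to mm10 (the submitters' processing notes name STAR 2.7.2b and featureCounts 2.0.0) and deposited UMI counts per gene and cell with an annotation of clusters. Cells with under 2000 genes or over 5% mitochondrial UMIs were removed before deposit, and the same limits were applied here to the Trio-seq2 cells. The deposited counts were summed per library and class (at least 5 cells) or per sample, and fitted in edgeR 4.0.16 (filterByExpr, TMM, quasi-likelihood) under R 4.3.3, with DESeq2 1.42.0 as an alternative. All classes of the 46 libraries entered 1 fit, and levels were scaled within each fit, so CPM of a library differ slightly between comparisons. A p-value was adjusted over all genes by Benjamini-Hochberg and called below 0.05. Cluster differences carry no test and were counted at a log2 fold change of 1. No doublet caller was run. The scripts were tested on simulated data. Library numbers pair sums of different classes from the same library, which the block uses. The 9 genes always, and of each list the 3 with the highest level in a fibroblast class, were named. The genes, the lists and the tests were chosen with earlier results of these data known. Alternatives were scaling, filter, tool, cells per sum, batch, block, left-out libraries and thinning depth, and those without single cells, *Xist*-positive cells or day libraries were added after seeing the data. Bisulfite data were not used here.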

Additional observations from a re-analysis of the deposited data

Results flagged for a closer look

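In 10 of 36 groups of 4 to 10 samples tested for the 9 genes, the highest sample stood far from the rest by Dixon's test at the 95% level. That level assumes normal values, which low counts led by single cells need not follow, so the count is a description. By day only *Ctgf* and *Thbs1* were screened. Among Fibroblast 1 libraries *Tagln* was at 9.65 CPM in day 14 replicate 4 (nearest 1.46 CPM) and *Thbs1* at 42.8 CPM in the same library (nearest 16.1 CPM). Among meiotic libraries day 16 replicate 3 was far above the others for *Ankrd1* (1.49 CPM, nearest 0.545), *Tagln* (4.46 CPM, nearest 0.182) and *Acta2* (13.3 CPM, nearest 5.01). In whole libraries of day 27, replicate 5 stood apart for *Ctgf* (53.1 CPM, nearest 10.2) and *Thbs1* (61.7 CPM, nearest 2.73), and among the 9 libraries of day 20 single ones did for *Ctgf* (7.23 CPM, nearest 2.45) and *Thbs1* (3.83 CPM, nearest 1.89). Of the 8 5C samples 1 stood apart for *Cyr61* (15.99 CPM, nearest 5.58).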

How the results depend on the processing

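The calls of all 9 genes in Fibroblast 2 held under other scaling, filters, tools, cell minimums and batch B1 alone, and each gene kept its direction. For Fibroblast 2 the cell minimums and the batch say little, since a minimum of 3 and batch B1 leave the same 3 libraries and a minimum of 10 leaves 1. With library as a replicate block, Fibroblast 1 over SSC1-4 gave 3 genes of the 9 (log2 medians 0.74 for the 9 and 0.01 for all genes). A mean of CPM over cells left 397 genes of all past 2-fold in either direction in Fibroblast 1 and 7126 in Fibroblast 2, from 4727 and 11835. Within SSC1-4 by day, batch as a covariate called 1 of the 9 (*Fn1*) and DESeq2's likelihood ratio test 3 (and 5398 of all genes). In whole libraries by day the latter called 4 (*Ctgf*, *Cyr61*, *Postn* and *Thbs1*). Its share of all genes there is not given here, and edgeR's was 22.2%.

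The replicate numbers of a day mark no stated pairing. With the number as a block, 1 of the 9 was called by day within SSC1-4 (*Fn1*, with 1775 of all genes) and 1 in whole libraries (*Thbs1*, where *Ctgf* was lost). In 5C against DMSO the same-number correlations were 0.35, -0.48, 0.20, 0.39 and -0.51, so the numbers did not pair the samples. The block left 7 genes called in all and none of the 5 of these genes that were tested.

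Leaving out 1 fibroblast library at a time gave 6 to 7 of the 9 genes and 4735 to 5391 genes of all past 2-fold in either direction in Fibroblast 1 over SSC1-4 (6 without day 14 replicate 4, where *Tagln* was lost). On the same count of genes it gave 9 to 9 and 11444 to 13902 in Fibroblast 2 over SSC1-4, and 9 to 9 and 10366 to 12814 in Fibroblast 2 over Fibroblast 1. Without each sample in turn 5C against DMSO called 0 of the 5 genes tested (4 tested without 5C replicate 2) and 1439 to 1908 genes of all. The day test gave 0 to 1 of the 9 and 2547 to 3569 genes in SSC1-4 (*Thy1* without day 14 replicate 1, day 16 replicate 1 or day 27 replicate 5, *Fn1* without day 16 replicate 2). It gave 2 to 4 and 3667 to 4407 genes in whole libraries (4 without day 14 replicate 1).

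Thinned to 25000 UMIs in place of 50000, the shares of Fibroblast 1 cells were 13.97% for *Ctgf*, 25.7% for *Cyr61*, 1.12% for *Tagln*, 23.5% for *Thbs1*, 16.8% for *Postn*, 82.7% for *Fn1* and 15.6% for *Thy1*, lower by construction. Fibroblast 2 rests on 3 libraries and the single-library days on 1 each, which limits every value by day and class. The causes of the other differences between settings were not tested.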
